A study of Mus musculus with 6 samples.

Results

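The genes described are the molecular motors of the cytoskeleton and their associated chains: myosins, kinesins, cytoplasmic dynein and dynactin. They were the rows of the deposited count table whose symbol begins with Myo, Myh, Myl, Kif, Klc or Dctn followed by a digit, with Dync1 or Dync2, or with Dynll, Dynlr or Dynlt. This rule found 91 of the 15565 genes in the table. By symbol, 60 of them are heavy chains, the chains that carry the motor domain, 19 are light chains, 5 are intermediate or light intermediate chains of dynein and 6 are dynactin subunits. The remaining gene, Kif1bp, encodes a protein that binds kinesins and is not itself a motor, and it was placed in no class.

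The cells were hepatocytes, the main working cells of the liver. Collagenase perfusion freed them from the livers of 3 C57BL/6 mice, 2 months old, and TERT(High) and TERT(Low) cells were sorted from each mouse. Polyadenylated RNA was sequenced from every sorted population, which gave 3 TERT(High) and 3 TERT(Low) libraries, 1 of each from every mouse. Tert encodes the catalytic subunit of telomerase. Mice of both groups had the genotype Tert(CreERT2/+); R26(LSL-Tomato/+), so that a tamoxifen-inducible Cre recombinase stood at 1 Tert allele and a Cre-dependent Tomato reporter at 1 Rosa26 allele in the TERT(High) and the TERT(Low) cells alike. Neither the gates of the sort nor any tamoxifen treatment is stated in the labels.

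Myosins walk on actin filaments, and kinesins and dynein walk on microtubules. Each motor is built on heavy chains that hydrolyse ATP, and most carry smaller chains: essential and regulatory light chains stiffen and regulate the lever arm of myosin, kinesin light chains tie kinesin-1 to its cargo, and intermediate, light intermediate and light chains form the tail of dynein, which works together with the dynactin complex. In hepatocytes these motors carry vesicles between the blood-facing and the bile-facing membranes, contract the bile canaliculi, and move endosomes, mitochondria and secretory vesicles. Heavy chains are encoded by long messenger RNAs and most light chains by short ones.

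The libraries held 54129815, 64065266 and 53585174 counts in TERT(High) populations of mice 1, 2 and 3, and 76164917, 55996433 and 55355819 counts in TERT(Low) populations. Motor genes took between 0.104% and 0.158% of the counts. Hepatocyte markers were abundant throughout, 12 of 12 were tested, and their summed level lay between 128584 and 144103 CPM (counts divided by the library size in units of 1e6) in TERT(High) libraries and between 126855 and 143114 CPM in TERT(Low) libraries. Of the 12, none rose and 1, the apolipoprotein gene Apoa2, fell (log2 fold change -0.75, SE 0.17, adjusted p = 0.0460). Tert itself had 38, 33 and 30 counts in TERT(High) libraries, against 21, 21 and 12 counts in TERT(Low) libraries, and on the CPM scale the groups did not overlap. Its log2 fold change was 0.87 (SE 0.44, adjusted p = 0.249, edgeR quasi-likelihood test). An exact two-sided permutation test of the 6 CPM values, which ignored the pairing by mouse, gave p = 0.1. That is the smallest that 3 unpaired libraries against 3 allow. Log2 fold changes are TERT(High) over TERT(Low) throughout, and a gene is said to have risen or fallen where its Benjamini-Hochberg adjusted p over all 13288 tested genes was under 0.05.

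The motor genes split by class. Of the 91, 70 had counts high enough to be tested: 41 heavy chains, 17 light chains, the 5 intermediate and light intermediate chains, the 6 dynactin subunits and Kif1bp. Among them 7 rose in TERT(High) cells, against a background of 4.43% of all tested genes, and 3 fell, against 3.71%. The 7 that rose are heavy chains, among them Kif21a, Kif5b, Kif16b, Myo6, Kif1b and Kif2a, and the 3 that fell are 2 light chains, Myl6 and Dynlrb1, and the dynactin subunit Dctn3. With the mouse fitted as a block, 5 rose and 2 fell, against 5.43% and 4.3% of all tested genes, and Kif16b (adjusted p = 0.059), Kif2a (adjusted p = 0.053) and Dctn3 (adjusted p = 0.056) missed the threshold. DESeq2 put 19 motor genes higher and 5 lower, against 11.3% and 9.6% of all tested genes. Its 19 include Myh9, Myh14, Myo18a, Myo9b and Dync1h1, described below, which did not pass in edgeR. Without the TERT(High) library of mouse 1, 9 of the 10 calls remained. Without any 1 of the other 5 libraries 0 genes of the whole table passed the threshold in edgeR. At an unadjusted edgeR p under 0.05, those 5 runs had between 14 and 21 motor genes higher and between 4 and 10 lower. Of all 13496 to 13779 genes tested in those runs, between 1515 and 1958 were higher and between 1295 and 1507 lower. Because each library is a bulk population, fewer cells of a type and less RNA per cell cannot be told apart.

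The kinesins that rose belong to several families. Kif5b, the ubiquitous heavy chain of kinesin-1 (chr18:6201005-6241524, coordinates of all genes from RefSeq on GRCm38), had 16.9, 11.97 and 22.9 CPM in TERT(High) libraries of mice 1, 2 and 3, against 6.35, 6.42 and 7.08 CPM in TERT(Low) libraries. The lowest TERT(High) value was well above the highest TERT(Low) value, and the log2 fold change was 1.38 (SE 0.25, adjusted p = 0.0321). Kif21a, a kinesin-4 that restrains microtubule growth (chr15:90933275-91050382), had 9.47, 16.8 and 21.8 CPM in TERT(High) libraries, against 4.89, 5.27 and 6.15 CPM in TERT(Low) libraries. Its groups did not overlap either, although TERT(High) cells of mouse 1 lay closest to the TERT(Low) libraries, and its log2 fold change of 1.56 (SE 0.31, adjusted p = 0.0375) was the largest of the 10 calls.

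Kif1b, a kinesin-3 that carries mitochondria and vesicles (chr4:149176319-149307773), was the most abundant of the 5 kinesins that rose. It had 44.4, 61.7 and 49.6 CPM in TERT(High) libraries, against 27.5, 24.8 and 19.0 CPM in TERT(Low) libraries, which gives a log2 fold change of 1.13 with an SE of 0.20 and an adjusted p of 0.0321. Kif16b, a kinesin-3 of early endosomes (chr2:142618340-142901609), had 2.24, 2.64 and 3.998 CPM in TERT(High) libraries, against 1.36, 1.05 and 1.06 CPM in TERT(Low) libraries (log2 fold change 1.35, SE 0.30, adjusted p = 0.0452). Kif2a does not walk but takes tubulin off microtubule ends (chr13:106958996-107022355), and it had 2.79, 2.43 and 2.75 CPM in TERT(High) libraries, against 1.40, 1.18 and 1.48 CPM in TERT(Low) libraries. Its replicates were close in both groups, and its log2 fold change of 0.97 (SE 0.22, adjusted p = 0.0474) was the smallest among the heavy chains that rose. The span of Kif2a overlaps that of Dimt1, and no source used here says how strand was treated in counting, so reads of the overlap could belong to either gene.

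Kif1c, another kinesin-3, was the most abundant kinesin and did not pass the test. It had 54.7, 129 and 100 CPM in TERT(High) libraries, against 45.8, 58.2 and 52.9 CPM in TERT(Low) libraries (log2 fold change 0.86, SE 0.31, adjusted p = 0.127). The groups overlapped in that TERT(High) cells of mouse 1 lay within the TERT(Low) range, while those of mice 2 and 3 lay above it. Kif13b, a kinesin-3 that binds membrane scaffold proteins, had 11.03, 29.4 and 22.4 CPM in TERT(High) libraries, against 7.29, 11.6 and 4.53 CPM in TERT(Low) libraries, with mouse 1 again the low TERT(High) value (log2 fold change 1.43, SE 0.46, adjusted p = 0.0984). Of the 20 kinesin heavy chains tested, 5 rose (3 with the mouse as a block) and none fell, against 4.43% and 3.71% of all tested genes. TERT(High) values lay above all TERT(Low) values in 9 of the 20, against 17.5% of all tested genes, and the median log2 fold change was 0.70.

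Among unconventional myosins, 2 of the 15 tested rose and none fell, against 4.43% and 3.71% of all tested genes, with a median log2 fold change of 1.24. Myo6, the myosin that moves towards the minus end of actin and serves endocytosis (chr9:80164976-80311729), had 20.2, 14.7 and 17.8 CPM in TERT(High) libraries, against 7.60, 7.10 and 6.89 CPM in TERT(Low) libraries. This was the call with the smallest adjusted p of the motor genes (log2 fold change 1.29, SE 0.17, adjusted p = 0.0274).

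Several myosins with larger fold changes did not pass, and in them TERT(High) cells of mouse 1 differed from those of mice 2 and 3. Myo18a, which links the Golgi membrane to actin, had 13.1, 112 and 88.6 CPM in TERT(High) libraries, against 12.8, 20.2 and 14.7 CPM in TERT(Low) libraries. Mouse 1 lay inside the TERT(Low) range and the other mice several times above it (log2 fold change 2.16, SE 0.71, adjusted p = 0.102). Myo9b behaved alike, with 2.68, 12.2 and 10.4 CPM in TERT(High) libraries, against 2.89, 2.35 and 1.499 CPM in TERT(Low) libraries (log2 fold change 1.91, SE 0.57, adjusted p = 0.0838). Myo1c, a widely expressed class I myosin and an abundant one, had 22.6, 31.1 and 30.4 CPM in TERT(High) libraries, against 27.3, 24.6 and 19.9 CPM in TERT(Low) libraries, and its groups overlapped (log2 fold change 0.23, SE 0.19, adjusted p = 0.498).

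The non-muscle class II myosins, which form the contractile filaments of the cell cortex, showed a wide split between mice. Myh9, the heavy chain of non-muscle myosin IIA (chr15:77760585-77842175), had 5.63, 108 and 84.3 CPM in TERT(High) libraries, against 7.02, 7.60 and 6.39 CPM in TERT(Low) libraries. The TERT(High) library of mouse 1 was thus the lowest of all 6, and the other TERT(High) libraries were more than 10 times as high as any TERT(Low) library. The mean was 65.9 ± 53.5 CPM in TERT(High) libraries and 7.003 ± 0.603 CPM in TERT(Low) libraries (SD, n = 3 each), with a log2 fold change of 3.23, an SE of 0.94 and an adjusted p of 0.0777. Myh14, the heavy chain of non-muscle myosin IIC (chr7:44605803-44670872), had 1.83, 10.3 and 8.53 CPM in TERT(High) libraries, against 1.38, 1.64 and 1.01 CPM in TERT(Low) libraries, so that here the groups did not overlap (log2 fold change 2.35, SE 0.62, adjusted p = 0.0636). Myh10, the heavy chain of non-muscle myosin IIB, had 0.881, 7.32 and 7.19 CPM in TERT(High) libraries, against 2.997, 0.897 and 1.78 CPM in TERT(Low) libraries (log2 fold change 1.43, SE 0.80, adjusted p = 0.292).

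Dync1h1, the heavy chain of cytoplasmic dynein 1 (chr12:110601395-110666944), had 15.1, 71.8 and 58.5 CPM in TERT(High) libraries, against 16.5, 11.8 and 7.42 CPM in TERT(Low) libraries. Mouse 1 again lay within the TERT(Low) range (log2 fold change 2.02, SE 0.59, adjusted p = 0.0792). Dync2h1, the heavy chain of the dynein that returns cargo inside cilia, was scarce, with 1.22, 0.826 and 1.22 CPM in TERT(High) libraries, against 0.504, 0.153 and 0.607 CPM in TERT(Low) libraries. Its groups did not overlap, and its adjusted p was 0.167 (log2 fold change 1.36, SE 0.56).

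**Figure D1:**
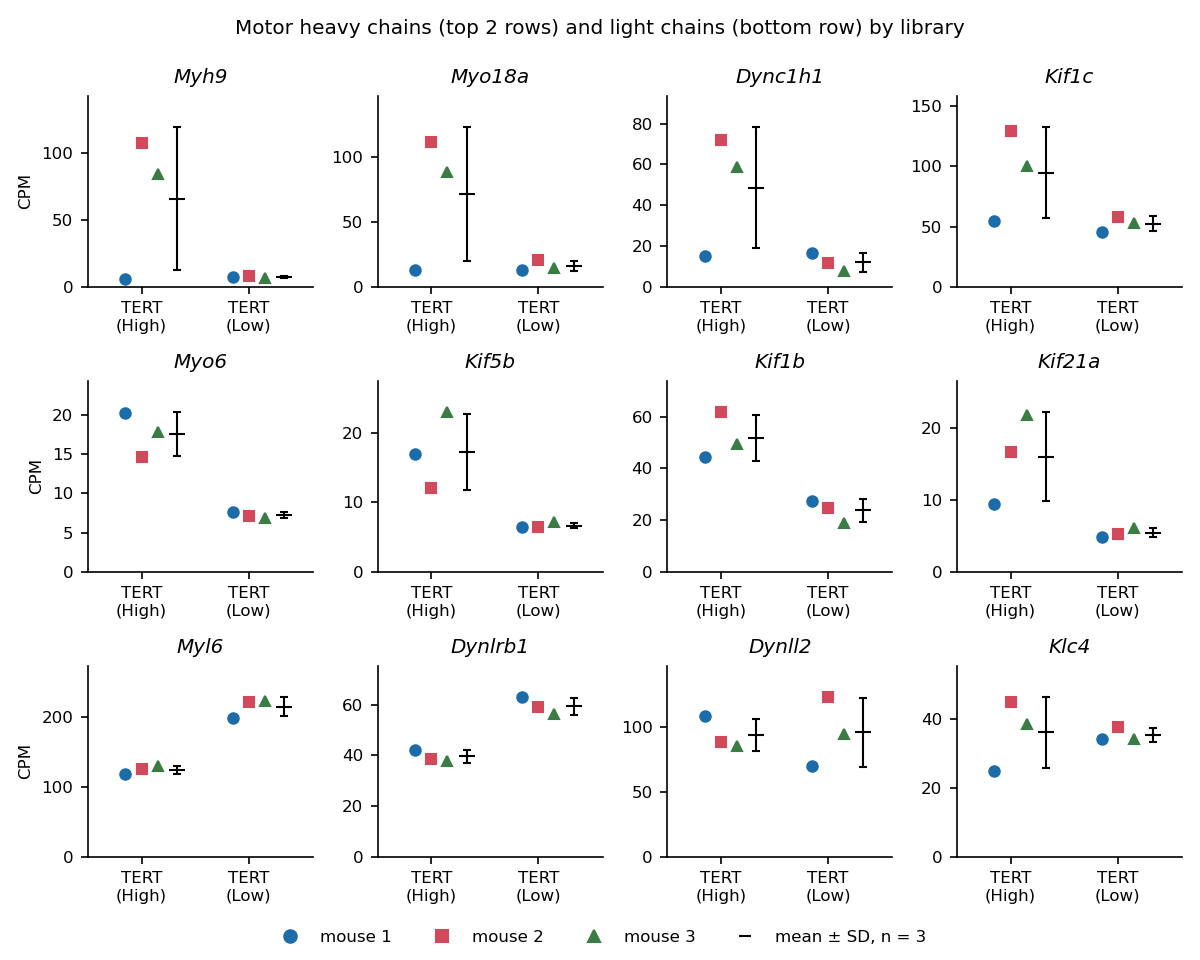
Level in CPM (vertical axes, from 0) of 8 heavy chains in the top 2 rows and 4 light chains in the bottom row, in TERT(High) and TERT(Low) libraries of mice 1, 2 and 3 (symbols), with the mean and SD of each group (black). Among TERT(High) libraries, Myh9, Myo18a, Dync1h1 and Kif1c were low in mouse 1, Myo6, Kif5b, Kif1b and Kif21a were above all TERT(Low) libraries, and Myl6 and Dynlrb1 were below them.

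Base composition was compared between heavy chains that rose and heavy chains with a TERT(High) mean in mice 2 and 3 far above mouse 1. For 12 heavy chains that mean was over 3 times the mouse 1 level, and their transcripts held 47.5% to 60.8% G or C (median 53.7%). Those of the 7 that rose held between 41.1% and 49.0% (median 46.0%). Of the 12, Kif1a, Kif5a, Kif5c and Myo5a were high in TERT(High) cells of mouse 3 but not of mouse 2. Kif5c and Myo5a, both at 47.5%, gave the only overlap with the 7. Among the rest of the 12 the lowest was Myh10, at 51.2%. The myosin motor domains share a short loop that binds the phosphates of ATP, and its coding sequence lets single genes be compared at matched positions. The sequences are 60 coding bases around this loop, from the GENCODE M21 transcript on GRCm38, 5′ to 3′, with the 24 bases of the loop in capitals. Myh9 (coding bases 502 to 561) and Myh14 (562 to 621) are heavy chains with a low TERT(High) value in mouse 1. Myo6 (433 to 492) rose. They were picked as examples after their values were seen.
Myh9: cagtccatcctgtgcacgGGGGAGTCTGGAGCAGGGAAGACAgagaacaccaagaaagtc
Myh14: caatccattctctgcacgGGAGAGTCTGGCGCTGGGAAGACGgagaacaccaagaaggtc
Myo6: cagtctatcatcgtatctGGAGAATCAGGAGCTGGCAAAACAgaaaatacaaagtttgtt
The window held 56.7% G or C in Myh9 and 38.3% in Myo6. At the last position of codons, where most changes leave the protein as it is, the whole coding sequence held 79.4% G or C in Myh9 and 73.2% in Myh14, against 50.3% in Myo6 and 56.2% in Kif1b, a kinesin that also rose.

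With a limit of 50% GC, which was chosen after these values were seen, 7 of the 16 tested heavy chains under it rose and 10 of the 16 had TERT(High) values above all TERT(Low) values. Of the 25 at or above it none rose and 4 did not overlap. Among all tested genes with a transcript, 8.93% rose under 50% GC and 0.859% at or above it, and 28.8% and 8.18% had TERT(High) values above all TERT(Low) values, so the split by composition was not confined to motors.

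The level in TERT(High) cells of mouse 1 relative to mice 2 and 3 went with GC content and also with transcript length. Its median difference, on the log2(CPM + 0.5) scale, was -0.39 for the 16 heavy chains under 50% GC and -1.12 for the 25 others, against 0.09 and -0.19 for all genes in the same GC classes. Spearman's rank correlation of GC content with that difference was -0.48 over the 41 heavy chains and -0.33 over 12548 genes, a description across genes that share the same libraries. The correlation of transcript length with the same difference was -0.39 over the 41 heavy chains and -0.16 over 12548 genes. Over all 70 motor genes it was -0.49 for length and -0.43 for GC content. Without the TERT(High) library of mouse 1, 20 motor genes rose and 3 fell, against 6.85% and 5.21% of all genes tested that way, and 12 of the 25 GC-rich heavy chains were then among those that rose. The part of base composition or length in these differences was not tested.

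**Figure D2:**
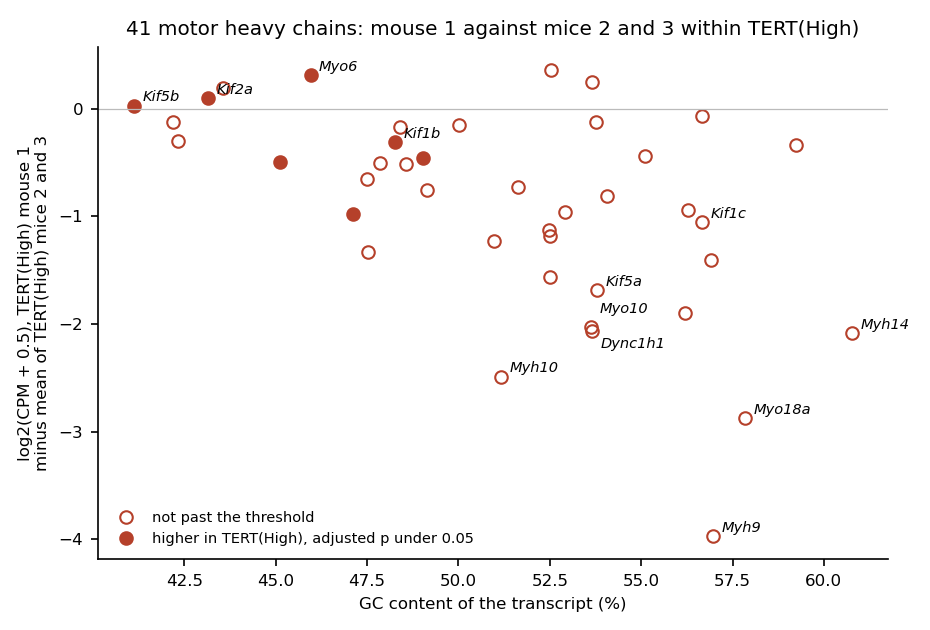
GC content of the transcript (horizontal axis, percent) against the level in TERT(High) cells of mouse 1 minus the mean of TERT(High) cells of mice 2 and 3 (vertical axis, log2(CPM + 0.5)) for 41 heavy chains, each a circle, filled where the gene rose in TERT(High) cells. The filled circles lie between 41.1% and 49.0% GC, and the lowest points, Myh9 and Myo18a, are GC-rich.

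RNA of other cell types differed between the libraries, and its part in the heavy chain differences was not tested. The 10 endothelial markers, all tested and none at 0 in any library, summed to between 36.9 and 62.4 CPM in TERT(High) libraries, against 26.0 to 32.8 CPM in TERT(Low) libraries, and 2 of them, Kdr and Lyve1, rose. Neutrophil markers, of which 6 of 9 were tested, summed to 10.4, 5.88 and 2.68 CPM in TERT(High) libraries, against 0.327, 1.16 and 1.97 CPM in TERT(Low) libraries, where Ngp, Camp and Ltf stood at 0 in mouse 1 and Camp at 0 in mouse 3. None of these 6 passed the threshold. The 10 macrophage markers summed to 19.2, 19.1 and 108 CPM in TERT(High) libraries, against 21.2, 17.2 and 51.9 CPM in TERT(Low) libraries, with none at 0 and none past the threshold. Biliary markers, 4 of 8 tested, summed to between 11.8 and 24.9 CPM in TERT(High) libraries and between 6.99 and 8.50 CPM in TERT(Low) libraries, 1 of them (Onecut1, which hepatocytes also express) rose, and Epcam had at most 6 counts in any library. Of 10 lymphocyte markers 1 was tested and did not pass. Stellate, smooth muscle and fibroblast markers, 8 of 12 tested and none at 0, summed to 143, 5.40 and 6.73 CPM in TERT(High) libraries, against 9.13, 6.05 and 10.8 CPM in TERT(Low) libraries, and none passed. A single gene, Col1a1, gave 127 of the 143 CPM.

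The light chains pointed the other way. Of the 17 tested, 2 fell, against 3.71% of all tested genes, and none rose. A negative log2 fold change was found in 12, and 7 had TERT(High) values below all TERT(Low) values, against 15.9% of all tested genes. The 12 include the 4 Dynlt1 copies, described below, whose values are not independent. Among the 7 are the copies Dynlt1c and Dynlt1f, so these counts overstate the number of separate light chains. Myl6, the essential light chain of non-muscle and smooth muscle myosin (chr10:128490859-128493886), was the most abundant motor gene. It had 118, 126 and 130 CPM in TERT(High) libraries, against 199, 222 and 223 CPM in TERT(Low) libraries, with tight replicates and no overlap. The mean was 124 ± 5.87 CPM in TERT(High) libraries and 215 ± 13.5 CPM in TERT(Low) libraries (SD, n = 3 each), and the log2 fold change was -0.79 (SE 0.13, adjusted p = 0.0277).

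The regulatory light chains, which carry the phosphorylation that switches non-muscle myosin on, did not pass the test. Myl12a had 43.4, 52.4 and 55.0 CPM in TERT(High) libraries, against 55.7, 71.0 and 67.4 CPM in TERT(Low) libraries (log2 fold change -0.36, SE 0.16, adjusted p = 0.203). Myl12b had 28.9, 42.5 and 45.2 CPM in TERT(High) libraries, against 38.0, 50.7 and 43.0 CPM in TERT(Low) libraries (log2 fold change -0.17, SE 0.21, adjusted p = 0.638). The groups of Myl12a did not overlap and those of Myl12b did. Their coding sequences are 96.5% identical over 516 bases, so reads may have been shared between them.

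Dynlrb1, the roadblock light chain of dynein (chr2:155236533-155250277), had 42.3, 38.7 and 37.7 CPM in TERT(High) libraries, against 62.8, 58.9 and 56.2 CPM in TERT(Low) libraries. It fell by 0.58 on the log2 scale (SE 0.13, adjusted p = 0.0452), with no overlap. Dynll1 and Dynll2 encode the LC8 light chains, hub proteins that dimerise many partners besides dynein, and their coding sequences are 81.3% identical over 267 bases. Dynll1 had 43.3, 49.0 and 50.6 CPM in TERT(High) libraries, against 50.9, 103 and 69.8 CPM in TERT(Low) libraries (log2 fold change -0.65, SE 0.26, adjusted p = 0.162). Dynll2 had 108, 88.2 and 85.2 CPM in TERT(High) libraries, against 70.1, 123 and 94.9 CPM in TERT(Low) libraries (log2 fold change -0.03, SE 0.23, adjusted p = 0.944). Its value was higher in TERT(High) than in TERT(Low) cells in mouse 1 and lower in mice 2 and 3. Dynlt3, a Tctex-type light chain on the X chromosome, was the dynein light chain with the largest change in either direction and the only one of 8 with a positive log2 fold change. It had 35.4, 18.3 and 26.0 CPM in TERT(High) libraries, against 13.1, 12.2 and 20.6 CPM in TERT(Low) libraries, which overlapped (log2 fold change 0.80, SE 0.31, adjusted p = 0.148).

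The Tctex-type light chain Dynlt1 is present as 4 gene copies within chr17:6306344-6655965, and their values are not independent. The first 60 coding bases of the copies, from the GENCODE M21 transcripts on GRCm38, 5′ to 3′, show why, with the position that differs in capitals.
Dynlt1a: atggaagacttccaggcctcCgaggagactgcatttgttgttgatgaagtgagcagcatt
Dynlt1b: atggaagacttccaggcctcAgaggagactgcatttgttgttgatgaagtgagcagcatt
Dynlt1c: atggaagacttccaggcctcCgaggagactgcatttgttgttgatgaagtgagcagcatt
Dynlt1f: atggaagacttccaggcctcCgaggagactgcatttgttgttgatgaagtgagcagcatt
Over the whole coding sequence of 339 bases, the only difference among the copies was C21A, from Dynlt1a to Dynlt1b, counted from 1 at the start codon. Reads of the coding part could therefore not be assigned to a copy with certainty, and the counts were summed. The sum was 3700, 3998 and 4140 counts in TERT(High) libraries, against 7112, 3926 and 5279 counts in TERT(Low) libraries, giving -0.46 as log2 fold change (SE 0.16, adjusted p = 0.119). Singly, the copies had log2 fold changes of between -0.51 and -0.39.

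Kinesin light chains, which bind the cargo of kinesin-1, did not follow its heavy chain Kif5b. Klc4 was the most abundant, with 24.9, 44.9 and 38.5 CPM in TERT(High) libraries, against 34.2, 37.6 and 34.2 CPM in TERT(Low) libraries (log2 fold change 0.03, SE 0.23, adjusted p = 0.944). Klc1 had 1.55, 1.92 and 4.41 CPM in TERT(High) libraries, against 7.03, 2.33 and 3.41 CPM in TERT(Low) libraries (log2 fold change -0.70, SE 0.55, adjusted p = 0.459). Klc2 had a log2 fold change of 0.03 (SE 0.35) and Klc3 one of 0.29 (SE 0.40). All 4 overlapped between the groups, and none passed the test.

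The intermediate and light intermediate chains of dynein, which hold the complex together and recruit its adaptors, did not pass the test. Dync1i2, the common intermediate chain, had 26.4, 23.8 and 25.1 CPM in TERT(High) libraries, against 22.0, 21.8 and 22.2 CPM in TERT(Low) libraries. The replicates were close and the groups did not overlap, but the difference was small (log2 fold change 0.19, SE 0.13, adjusted p = 0.377). The light intermediate chains Dync1li1 and Dync1li2 also had all TERT(High) values above all TERT(Low) values, with log2 fold changes of 0.36 (SE 0.19, adjusted p = 0.273) and 0.31 (SE 0.17, adjusted p = 0.295). Dync1i1, the neuronal intermediate chain, had the lowest log2 fold change of all motor genes tested, -2.03 (SE 1.89, adjusted p = 0.538), on 0, 0 and 14 counts in TERT(High) libraries, against 50, 0 and 16 counts in TERT(Low) libraries. Dync2li1, a light intermediate chain of the dynein of cilia, had between 12 and 26 counts in each library, and its groups overlapped. Of the 5 chains, 3 did not overlap in the higher direction, against 17.5% of all tested genes, and none passed the test.

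Dynactin is the large cofactor that tethers dynein to its cargo. Dctn3, its p24 subunit in the shoulder (chr4:41714798-41723163), had 15.5, 16.04 and 16.5 CPM in TERT(High) libraries, against 22.5, 23.6 and 23.8 CPM in TERT(Low) libraries. Both groups were tight, and it fell by 0.54 on the log2 scale (SE 0.13, adjusted p = 0.0498), just inside the threshold. Dctn1, the p150 subunit that binds microtubules and dynein and the longest dynactin gene here, had 3.49, 15.5 and 13.5 CPM in TERT(High) libraries, against 6.21, 4.39 and 3.32 CPM in TERT(Low) libraries. Its pattern was that of Dync1h1 and Myh9, low in TERT(High) cells of mouse 1 and high in those of mice 2 and 3 (log2 fold change 1.22, SE 0.55, adjusted p = 0.202). Dctn2, the p50 subunit, had 37.0, 63.4 and 60.4 CPM in TERT(High) libraries, against 54.03, 43.97 and 65.01 CPM in TERT(Low) libraries (log2 fold change -0.02, SE 0.25, adjusted p = 0.969), and its span overlaps that of Kif5a. The pointed-end subunits Dctn5 and Dctn6 had all TERT(High) values below all TERT(Low) values without passing the test (log2 fold changes -0.25 and -0.41, adjusted p = 0.385 and 0.151).

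Heavy and light chains were then compared as classes, over the genes that were tested and as a description. The median log2 fold change was 0.97 for 41 heavy chains and -0.39 for 17 light chains, a difference of 1.35, beside a median of -0.01 over all tested genes. Of the heavy chains, 31 had a positive log2 fold change and 14 had TERT(High) values above all TERT(Low) values, against 17.5% of all tested genes, and none lay wholly below. No light chain lay wholly above. By family the medians were 1.89 for 4 class II myosins, 1.24 for 15 unconventional myosins, 0.70 for 20 kinesins and 1.69 for 2 dynein heavy chains, against -0.36 for 5 myosin light chains, 0.03 for 4 kinesin light chains and -0.45 for 8 dynein light chains. Within mice, the median difference of heavy chains between TERT(High) and TERT(Low) cells, on the log2(CPM + 0.5) scale, was 0.07 in mouse 1, 0.85 in mouse 2 and 0.92 in mouse 3, and that of light chains was -0.57, -0.24 and -0.15. The sign of the 2 classes was thus opposed in each mouse, with heavy chains close to 0 in mouse 1. As summed levels, heavy chains reached 319, 784 and 728 CPM in TERT(High) libraries, against 278, 263 and 230 CPM in TERT(Low) libraries, and light chains 511, 533 and 551 CPM in TERT(High) libraries, against 635, 761 and 718 CPM in TERT(Low) libraries.

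Transcript length differed between these classes and moved with the fold change of all genes. Transcripts of the heavy chains had a median of 6163 nucleotides and ran from 2115 to 14342, and those of the light chains had a median of 2030 and ran from 692 to 3321. Over all tested genes the median log2 fold change went with length, being -0.55 in the shortest of 10 equal classes of length and 0.80 in the longest, and the 18 heavy chains in that longest class had a median of 1.43. Spearman's rank correlation of log2 fold change with transcript length was 0.50 over the 70 motor genes and 0.48 over 12548 genes, and within classes it was 0.30 over 41 heavy chains and 0.32 over 17 light chains. In the length range that both classes share, 2115 to 3321 nucleotides, 5 heavy chains had a median of 0.40 and 8 light chains one of -0.10, against -0.00 for the 3315 genes of that range.

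With each library's fitted trend on length and GC content taken out by an offset, the median was 0.60 for heavy chains and -0.06 for light chains, a difference of 0.66. A length trend remained, with Spearman's rank correlations of 0.11 over 12548 genes and 0.28 over the 70 motor genes. Within heavy chains the correlation was 0.10 and within light chains -0.11. No motor gene and no other gene then passed the threshold (0% of 12548). Before adjustment, 10.8% of genes were higher and 7.24% lower with a p under 0.05. Of the 41 heavy chains, 16 were higher and 1 lower at that unadjusted level, and of the 17 light chains 1 was higher and 2 were lower. Those 2 are the copies Dynlt1a and Dynlt1c, which are not independent and whose transcripts were taken as 3321 and 2589 nucleotides. The copies Dynlt1b and Dynlt1f, taken as 771 nucleotides each, stood at 0.061 and -0.055 with the offset. Among single genes, the log2 fold change of Myo6 went to 0.99 and that of Myh9 to 2.61, while that of Myl6 went to -0.26, that of Dynlrb1 to -0.09 and that of Dctn3 to -0.09. The lower light chain values and the length trend of all genes cannot be told apart in these libraries.

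**Figure D3:**
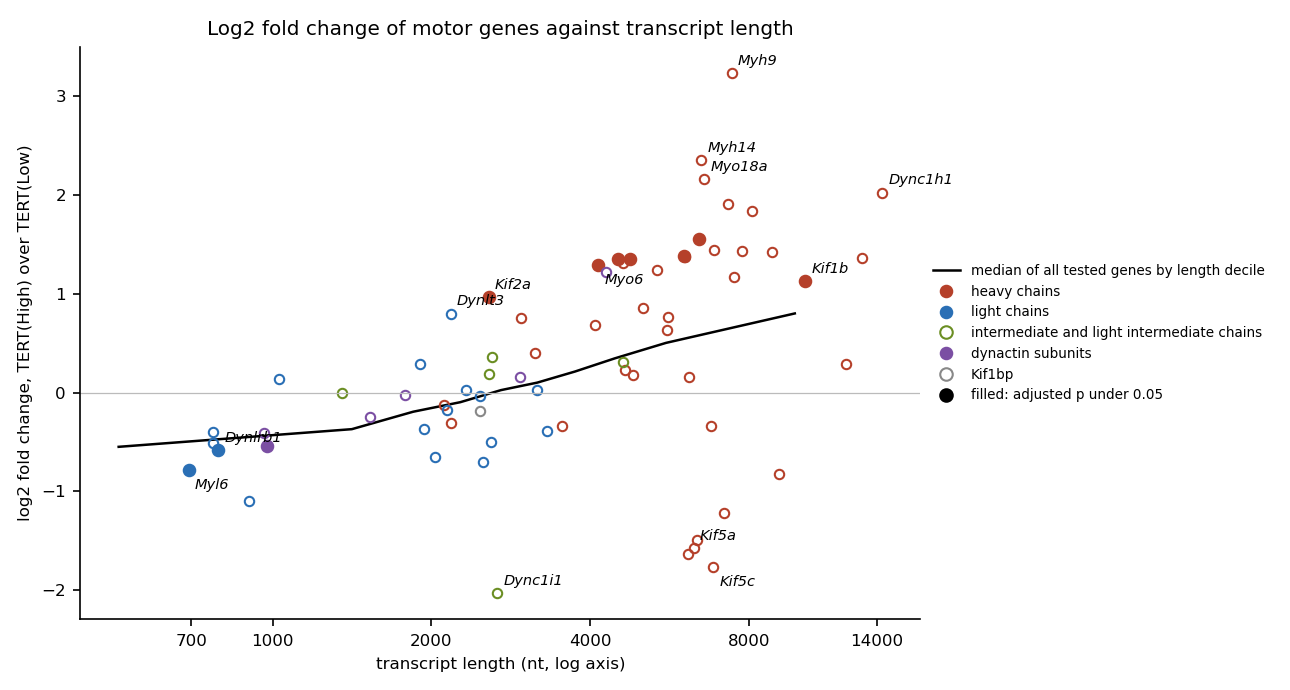
Transcript length in nucleotides (horizontal log axis) against the log2 fold change of TERT(High) over TERT(Low) (vertical axis) for the 70 motor genes tested, coloured by class and filled where the adjusted p was under 0.05, with the median of all tested genes in 10 classes of length (black line). Heavy chains lie at the long end, where the line reaches 0.80, and light chains at the short end, where it is at -0.55, and many heavy chains lie above the line.

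Ratios between partner chains within a library show how the balance of each complex varied. They were taken on CPM per kilobase of transcript, so that levels of different genes could be set side by side. The summed non-muscle myosin II heavy chains (Myh9, Myh10 and Myh14) over the summed regulatory light chains (Myl12a and Myl12b) gave 0.0321, 0.363 and 0.274 in TERT(High) libraries, against 0.0332, 0.0231 and 0.0227 in TERT(Low) libraries. Mouse 1 thus stood with the TERT(Low) libraries. Dync1h1 over Dync1i2 gave 0.103, 0.540 and 0.417 in TERT(High) libraries, against 0.134, 0.0972 and 0.0601 in TERT(Low) libraries, and again mouse 1 was not separated. Dync1h1 over Dync1li1 and Dync1li2 gave 0.194, 0.823 and 0.780 in TERT(High) libraries, against 0.237, 0.181 and 0.137 in TERT(Low) libraries. There too mouse 1 was not separated. Over Myl6 and Dynlrb1, which both fell, mouse 1 was separated by a small margin. The summed myosins over Myl6 gave 0.00675, 0.0937 and 0.0725 in TERT(High) libraries, against 0.00536, 0.00434 and 0.00386 in TERT(Low) libraries. Dync1h1 over Dynlrb1 gave 0.0196, 0.102 and 0.0852 in TERT(High) libraries, against 0.0144, 0.0110 and 0.00725 in TERT(Low) libraries. Kif5b over the 4 kinesin light chains gave 0.224, 0.0893 and 0.182 in TERT(High) libraries, against 0.0539, 0.0559 and 0.0673 in TERT(Low) libraries, and here too every TERT(High) library was above every TERT(Low) library. On the same per-kilobase scale, Myl6 stood at 180 CPM per kilobase in TERT(High) libraries and 310 in TERT(Low) libraries, far above any heavy chain. The most abundant heavy chain by this measure was Kif1c, at 18.8 in TERT(High) and 10.4 in TERT(Low) libraries.

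**Figure D4:**
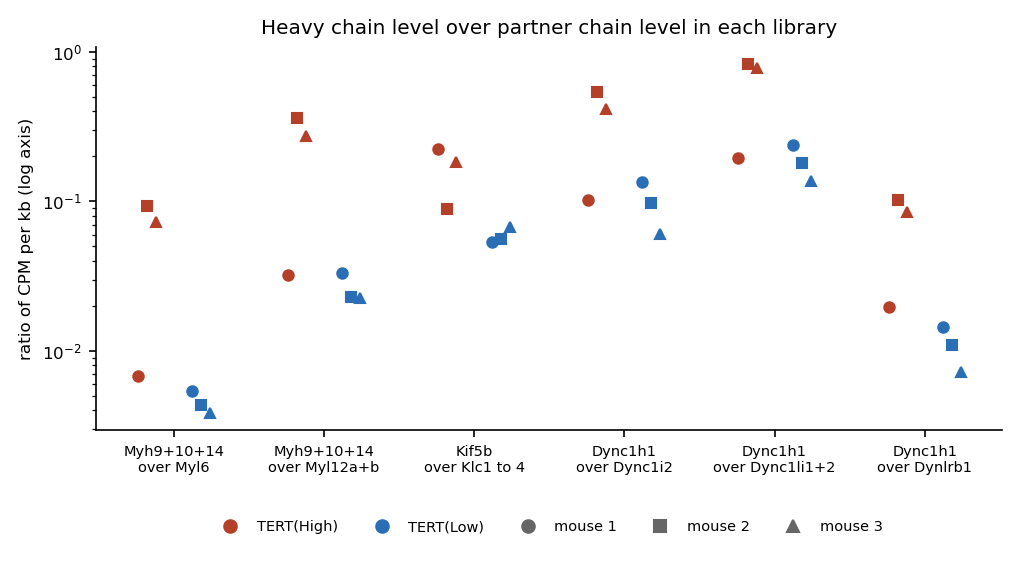
Ratio of heavy chain to partner chain level (vertical log axis, CPM per kilobase of transcript) for 6 pairs of partners in each TERT(High) (red) and TERT(Low) (blue) library, with symbols for mice 1, 2 and 3. In the pairs with class II myosins or Dync1h1 the TERT(High) library of mouse 1 lies near the TERT(Low) libraries, just above all of them over Myl6 and Dynlrb1, and in the pair of Kif5b with its light chains all TERT(High) libraries lie above.

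A group of motors known for axonal transport varied by library rather than by TERT group. Kif5a, the neuronal kinesin-1 heavy chain, had 19, 6 and 629 counts in TERT(High) libraries of mice 1, 2 and 3, against 1711, 1 and 527 counts in TERT(Low) libraries. It was high in TERT(High) cells of mouse 3 and in TERT(Low) cells of mice 1 and 3, and next to absent elsewhere. Kif5c had 6, 4 and 204 counts in TERT(High) libraries, against 623, 0 and 207 in TERT(Low) libraries. Kif1a, the carrier of synaptic vesicle precursors, had 10, 11 and 234 counts in TERT(High) libraries, against 744, 2 and 174 in TERT(Low) libraries. Myo5a, the organelle carrier of neurons and melanocytes, and Dync1i1 were also highest in these 3 libraries. In these 5 of 70 motor genes the lowest of those 3 libraries was over 4 times the highest of the others, which held for 4.24% of all tested genes. Their log2 fold changes lay between -2.03 and -1.50 with standard errors of at least 1.69, and none passed the test. Without a margin, those 3 libraries all lay above the others in 12 of 70 motor genes, against 8.92% of all tested genes. The light chain Klc1 is among the 12.

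Neuronal and glial marker genes were listed after this pattern was seen, and the sum of each list was highest in the same 3 libraries. The 12 neuronal markers, all tested, summed to 8.59, 4.13 and 41.8 CPM in TERT(High) libraries, against 84.5, 2.88 and 37.4 CPM in TERT(Low) libraries. Snap25 had 16, 3 and 452 counts in TERT(High) libraries, against 1291, 2 and 410 in TERT(Low) libraries, Stmn2 was at 0 in TERT(High) mice 1 and 2, and 6 of the 12 were at 0 in TERT(Low) mouse 2. The 7 glial markers, 6 tested, summed to 16.9, 16.6 and 39.4 CPM in TERT(High) libraries, against 82.4, 28.7 and 41.1 CPM in TERT(Low) libraries. Single glial markers departed from this pattern. Aqp4 was highest in TERT(High) mouse 1, at 3.43 CPM, and Cnp had 9.18 CPM in TERT(Low) mouse 2, against 6.66 CPM in TERT(High) mouse 3. The source of the neuronal and glial RNA was not tested. The TERT(Low) values of Kif5b were between 6.35 and 7.08 CPM. The 3 libraries with the lowest neuronal and glial sums were TERT(High) of mice 1 and 2 and TERT(Low) of mouse 2. Between them the heavy minus light chain difference was 1.43, with 1 TERT(Low) library, whose spread cannot be measured.

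**Figure D5:**
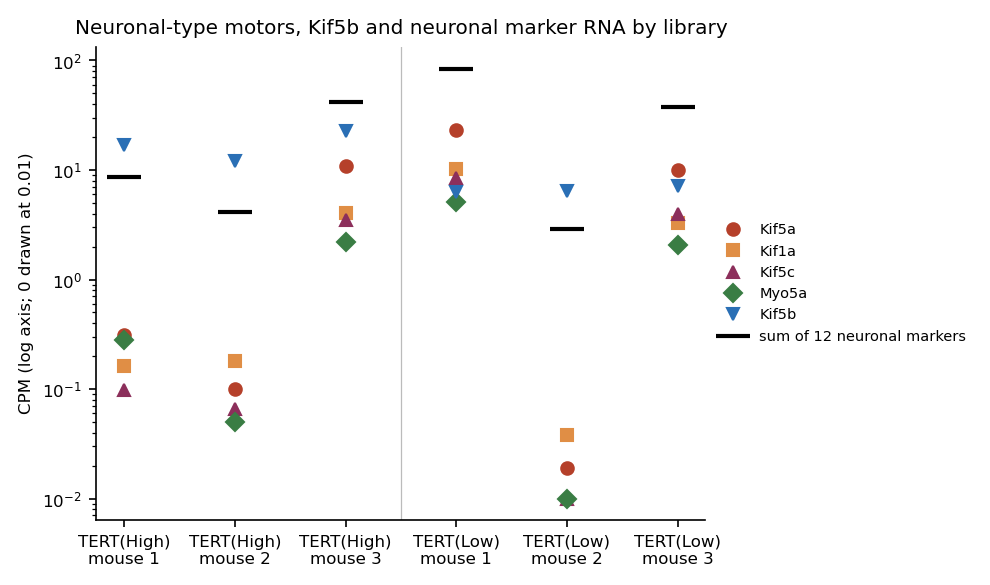
Level in CPM (vertical log axis, 0 drawn at 0.01) of Kif5a, Kif1a, Kif5c, Myo5a and Kif5b (symbols) and the sum of 12 neuronal markers (black bars) in each TERT(High) and TERT(Low) library. The first 4 genes and the neuronal markers are high in TERT(High) mouse 3 and TERT(Low) mice 1 and 3, and Kif5b is higher in each TERT(High) library than in any TERT(Low) library.

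The 21 motor genes that were not tested were 19 heavy and 2 light chains, with a highest count per gene of between 6 and 25 in any library. They include the muscle myosins Myh1, Myh6, Myh7, Myh8 and Myh11, the muscle light chains Myl1 and Myl9, and mitotic kinesins such as Kif18a, Kif2c and Kif4. Myh1, a fast skeletal muscle myosin, had 25 counts in TERT(High) cells of mouse 1, 0 in those of mice 2 and 3, and 2, 0 and 8 in TERT(Low) libraries of mice 1, 2 and 3. The same TERT(High) library held 22 counts of Myl1, 13 of Myh8 and 26 of myoglobin (Mb), and 7758 counts of the collagen gene Col1a1, for which the other libraries had between 6 and 314. Among the mitotic kinesins that were tested, Kif11 had a log2 fold change of 0.17 (SE 0.47), Kif20a 0.40 (SE 0.37) and Kif22 -0.13 (SE 0.61), and none passed the test. Proliferation genes other than motors, 8 of 16 tested, gave none either.

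Genes that work with the motors were read from lists that, like the motors, were chosen with earlier results of these data known. Of 15 tested dynein regulators and activating adaptors, 2 rose and none fell, against 4.43% and 3.71% of all tested genes, with a median log2 fold change of 0.46. Both that rose are Hook proteins, which activate dynein and link it to endosomes. Hook3 had 21.4, 10.97 and 15.9 CPM in TERT(High) libraries, against 4.35, 3.38 and 4.93 CPM in TERT(Low) libraries (log2 fold change 1.93, SE 0.29, adjusted p = 0.0277). Hook1 had 41.2, 15.3 and 30.8 CPM in TERT(High) libraries, against 8.50, 6.61 and 8.21 CPM in TERT(Low) libraries (log2 fold change 1.90, SE 0.36, adjusted p = 0.0346). In both the TERT(High) library of mouse 1 was the highest of all, while for Dync1h1 it was the lowest of the TERT(High) libraries. The 13 tested kinases, phosphatase subunits and chaperones of myosin had log2 fold changes of between 0.02 and 1.76 (median 0.85), none past the threshold. The tracks themselves, 15 actin and tubulin genes, had a median of -0.78 with 13 of 15 negative, none past the threshold. The 15 kinesin cargo adaptors had log2 fold changes of between -1.60 and 2.47 (median -0.03), none past the threshold. Of 10 accessory chains and dynactin subunits with other symbols (median -0.21) and 4 C-terminal kinesins (median 0.14), none passed either.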

How the data were processed

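Reads were processed with Trim Galore 0.4.0, TopHat2 2.0.13, DESeq2 and the genome mm10, per the submitters' processing notes, and libraries were made with a stranded mRNA kit, per the labels' protocols. Which program counted the reads, with which strand setting and annotation, is not given in the sources used here. The values used are raw counts for each gene, unscaled, as deposited by the authors. A second table deposited by the authors holds log2 fold changes, their errors and adjusted p-values from the authors' own DESeq2 comparison, per the file headers.

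The counts of all 6 libraries were tested with edgeR 4.0.16 in R 4.3.3. Low genes were removed by filterByExpr, which left 13288 of 15565, libraries were scaled by TMM, and the group alone was fitted by quasi-likelihood with robust dispersions, with Benjamini-Hochberg adjustment over every gene tested and a threshold of 0.05. The common biological coefficient of variation was 40.7%. CPM use the TMM-scaled library size. Each standard error was obtained as the size of the log2 fold change over the root of its F statistic. Every pair of libraries differed by far more than sampling noise in a chi-square test of the counts.

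Per the labels, TERT(High) and TERT(Low) cells with the same number come from 1 mouse. The residuals of the 2 libraries around the group means correlated at 0.13, 0.591 and 0.435 for mice 1, 2 and 3, and a block for the mouse, tried as an alternative, gave a coefficient of variation of 29.64%. Further alternatives used other scalings and filters, DESeq2 1.42.0, voom of limma 3.58.1 with sample weights, fewer libraries, or an offset (mgcv 1.9.3) that takes out each library's smooth trend on transcript length and GC content. Lengths were known for 12548 tested genes (94.4%), from the GENCODE M21 transcript with the longest coding sequence. Coordinates are from RefSeq. Of the motor genes, 19 have a span that overlaps another counted gene. The test was also run on simulated counts with the same dispersion for every gene. Those counts had no mouse pairing and no trend on length or GC content, so they cannot show how the test behaves with these features.

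The members, classes and lists were chosen with earlier results of these data known. Kif1bp was left out of the heavy chains, whose symbol pattern it matches, since it is no kinesin. Named are the motor genes past the threshold, in each family the 3 most abundant and the 2 with the largest change at 1 CPM or more, up to 2 genes past the threshold from each list, and Tert. Of the motor genes past the threshold, 1 is counted but not reported here by name. Further genes were named after their values were seen.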

Additional observations from a re-analysis of the deposited data

How the results depend on the processing

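Median log2 fold changes of heavy chains stayed positive and those of light chains negative under every alternative tried, and the calls did not. Other tools and filters made more calls: the strict filter on low counts gave 1111 genes higher and 799 lower, DESeq2 1508 and 1276, and limma-voom 1373 and 1104, with 16, 19 and 19 motor genes higher, and DESeq2 put 5 motor genes lower. Library totals alone, which moved the median of all genes by over 0.1 to 0.14, gave 19 genes and 0 motor genes lower, and dropping the filter gave 1 motor gene lower. With the length and GC offset, alone or with the mouse as a replicate block, 0 genes and 0 motor genes passed in either direction. TERT(High) mice 1 and 2 against TERT(Low) mouse 2 was an alternative chosen after the data were seen. It leaves 1 TERT(Low) library and is given by effect sizes alone. At an unadjusted p under 0.05 the offset alone had 1358 genes higher and 908 lower. Leaving out 1 library at a time, the count ranged from 0 to 937 genes higher and from 0 to 713 lower, and from 0 to 20 motor genes higher and 0 to 3 lower, the higher ends being without TERT(High) mouse 1.

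The mouse as a block took the kinesin heavy chains that rose to 3, against 5, and the dynactin subunits that fell to 0, against 1, through Kif16b, Kif2a and Dctn3, and changed no other call of a motor gene. With the offset the light chain median was -0.055 (-0.075 with the block as well), the intermediate chain median 0.051 in both, and the heavy minus light chain difference 0.66 (0.74 with the block as well). That difference was 1.72 with the strict filter and ran from 1.26 to 1.46 with libraries left out, 1.30 with Kif1bp among the heavy chains and 1.24 with the Dynlt1 copies counted once. The intermediate chain median was 0.35 with library totals, 0.30 with the strict filter and from 0.11 to 0.20 with libraries left out. The cause of these shifts was not tested.

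Some motor genes changed sign, none of them past the threshold, and those given here are examples. With the length and GC offset, Dctn6 went from -0.41 to 0.017, Dynlt1b from -0.39 to 0.061 and Kif22 from -0.13 to 0.036. Kif11 went from 0.17 to -0.31, Myh7b from 0.15 to -0.27 and Myo9a from 0.29 to -0.57. Dctn2 stood at 0.11 with library totals, 0.053 with voom, 0.19 with the offset with or without the block and in 2 libraries against 1, and from -0.20 to 0.14 with libraries left out. Dynll2 stood at 0.13 with library totals, 0.0062 with voom, 0.060 with the offset and 0.079 with offset and block, and from -0.22 to 0.20 with libraries left out. Klc2 was at -0.0024 with DESeq2, -0.0020 with its size factors, -0.00028 with the block, -0.019 with upper-quartile scaling, -0.053 with the offset, -0.075 with offset and block, -0.12 in 2 libraries against 1, and from -0.27 to 0.28 with libraries left out. Klc4 was at -0.019 with upper-quartile scaling, -0.0087 with the block, -0.10 in 2 libraries against 1, and from -0.19 to 0.19 with libraries left out. Dync1li2 was at -0.0087 with the offset and -0.013 with offset and block, and in 2 libraries against 1 Klc3 was at -0.33 and Kif1a at 2.11, against -1.63 with all libraries. Scarce genes are limited by depth, since the 21 motor genes not tested had at most 25 counts in a library.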

Other observations

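The authors' deposited table lists 58 of the motor genes among 10858 genes. At an adjusted p under 0.05 in the authors' deposited table, 19 motor genes had a positive and 6 a negative log2 fold change, beside 1712 and 1460 of all its genes. The sign of the log2 fold change in the authors' deposited table was that of the edgeR test for 97.1% of its genes.

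Some adaptors of the motors were far lower in TERT(High) cells of mouse 1 than in those of mice 2 and 3. Numa1, which anchors dynein at spindle poles and the cell cortex, had 1.58, 22.97 and 16.03 CPM in TERT(High) libraries of mice 1, 2 and 3, against 2.15, 1.66 and 2.07 CPM in TERT(Low) libraries (edgeR log2 fold change 2.78, SE 0.85, adjusted p = 0.0876). Fyco1, which links late endosomes and autophagosomes to kinesin-1, had 2.99, 17.4 and 14.8 CPM in TERT(High) libraries, against 1.84, 1.97 and 2.56 CPM in TERT(Low) libraries, and its groups did not overlap (edgeR log2 fold change 2.47, SE 0.62, adjusted p = 0.0579). Rock1, the kinase that activates myosin II through its regulatory light chain, had instead 6.496, 4.82 and 8.06 CPM in TERT(High) libraries, against 0.886, 2.88 and 3.02 CPM in TERT(Low) libraries, with mouse 1 not low (edgeR log2 fold change 1.52, SE 0.48, adjusted p = 0.0928). These 3 genes were chosen after their values were seen, and none passed the threshold.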
